A study of Mus musculus with 33 samples.

Results

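The motile cilia genes described here are 40 genes of 54347 gene identifiers in the table, chosen by name from a list of genes used as a measure of ciliated epithelium, the kind that lines the oviduct. All 40 were found in the table. They were followed in 33 RNA-seq libraries of mouse ovary, in 9 groups and 3 experiments. Experiment 1 held 3 libraries each labelled WT, Fshb(+/-) and Fshb(-/-), called WT, Het and KO. Experiment 2 held 4 libraries labelled Fshb(-/-), called KO, and 4 labelled Fshb(-/-) HFSHB, called R; from that label the mutants of R also carried HFSHB. Experiment 3 held 12 libraries with the genotype label WT in 3 stages coded DE, PE and E (4 in each), which the labels do not spell out, and 4 more whose stage label was KO (anestrus) while their genotype label was also WT. No stage was given for experiments 1 and 2, and no age, promoter driving HFSHB or pooling of animals was given for any group. Fshb encodes the hormone-specific subunit of follicle-stimulating hormone, a pituitary hormone that acts on ovarian follicles.

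Motile cilia are hair-like projections that beat. Their core is a ring of microtubule doublets around a central pair, and dynein motors on the doublets slide them against each other, while radial spokes and the central apparatus control the stroke. Cells with many motile cilia switch on this programme through Mcidas and Ccno, which drive the making of many basal bodies, and Foxj1, a forkhead factor that turns on the axoneme genes; RFX factors, which bind a palindrome called the X-box, act with it. In the female tract ciliated cells of the oviduct move the egg and sit beside secretory cells, which make oviduct glycoprotein, the product of Ovgp1.

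Because most of the genes rose and fell together across libraries, as described later, the sequence before their start sites was read from RefSeq (GRCm38.p6), which held 250 bases before to 50 after the start for 32 of the 40 genes. The X-box was searched as the inverted repeat of GTTNCC with 2 bases between the copies, a half-site as GTTGCC, which reads GGCAAC on the other strand, and a forkhead site as TGTTTAC, on both strands. The full X-box was in the window of 1 gene, Ccdc151 (3.13% of the 32, against 0.529% of 27025 genes). The half-site was in 14 of the 32 (43.8%, against 14.1% of all genes), and the forkhead site in 2, Ak7 and Cfap43 (6.25%, against 4.05%). Up to 150 bases before the start are shown for Ccdc151, which holds the full X-box, and for Hydin, Drc1 and Cfap44, each with a half-site that begins within 19 bases of the start; Cfap44 has another, 129 bases before it. They are written 5′ to 3′ on the strand of the gene, with matches in capitals. A match is a run of letters and does not show that a factor binds there.
Ccdc151 (chr9:22002635-22002784, minus strand): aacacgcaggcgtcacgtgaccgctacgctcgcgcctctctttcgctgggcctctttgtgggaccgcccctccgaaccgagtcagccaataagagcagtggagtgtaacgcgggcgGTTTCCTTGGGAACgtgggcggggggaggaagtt
Hydin (chr8:110266827-110266976, plus strand): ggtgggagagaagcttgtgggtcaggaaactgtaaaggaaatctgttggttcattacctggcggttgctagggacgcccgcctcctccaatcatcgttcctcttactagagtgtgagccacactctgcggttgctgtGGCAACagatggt
Drc1 (chr5:30281243-30281387, plus strand): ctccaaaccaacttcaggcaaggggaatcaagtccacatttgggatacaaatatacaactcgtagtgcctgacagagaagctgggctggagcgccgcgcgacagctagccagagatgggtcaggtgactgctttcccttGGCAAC
Cfap44 (chr16:44394649-44394795, plus strand): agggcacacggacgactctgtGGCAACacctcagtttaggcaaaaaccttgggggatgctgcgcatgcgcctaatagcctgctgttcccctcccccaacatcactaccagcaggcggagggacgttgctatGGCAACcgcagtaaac

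Library totals lay between 10.1 M and 23.7 M counts, so that 1 count was worth under 0.1 CPM (counts per 1000000 of the library total). Fshb itself had 0 to 1 counts in the WT libraries of experiment 1, 43 to 106 in Het and 68 to 82 in the KO libraries. In experiment 2 it had 119 to 184 counts in KO and 221 to 431 in R. In experiment 3 its counts were 90 to 114 in the KO libraries, 60 to 198 (DE), 0 to 51 (PE) and 0 to 170 (E). Counts per gene do not separate the targeted allele from an intact one, so groups are named by their labels. The labels do not say that replicates came from separate animals, and if they did not, the p-values reflect only how far these samples differ, possibly for technical reasons.

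The motile cilia genes divided the libraries rather than the groups. In 11 libraries Foxj1 was at 36.9 CPM or more, and in the other 22 it was at 6.81 CPM or less. The 11 libraries were all 4 PE libraries, DE replicates 1, 2 and 4, E replicate 3, Het replicate 3 of experiment 1, and in experiment 2 KO replicate 3 and R replicate 2. A cilia index, the mean over the 40 genes of log2(CPM + 1), was 3.32 to 4.63 in those 11 libraries and 1.86 or less in the others. DE replicate 3 and E replicate 3 thus went against the other libraries of their stages. In RNA from whole tissue, fewer ciliated cells and less RNA per cell cannot be told apart.

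The summed level of the 40 genes was 868, 1014, 1340 and 1304 CPM in PE replicates 1 to 4. DE held 1413, 699, 87.7 and 706 CPM, and E held 68, 67.6, 881 and 65.3 CPM. The KO libraries of experiment 3 held 116, 126, 112 and 139 CPM, so that every PE library was above every KO library, while DE and E each held libraries on both sides. In experiment 1 the sum was 89.6, 106 and 119 CPM in WT, 63.6, 101 and 1386 in Het, and 121, 126 and 142 in KO. In experiment 2 it was 102, 122, 619 and 179 CPM in KO and 86.6, 77.0 and 73.1 in R replicates 1, 3 and 4, against 502 in R replicate 2. Het replicate 3 reached the level of PE; no WT or KO library of experiment 1 came near it.

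**Figure D1:**
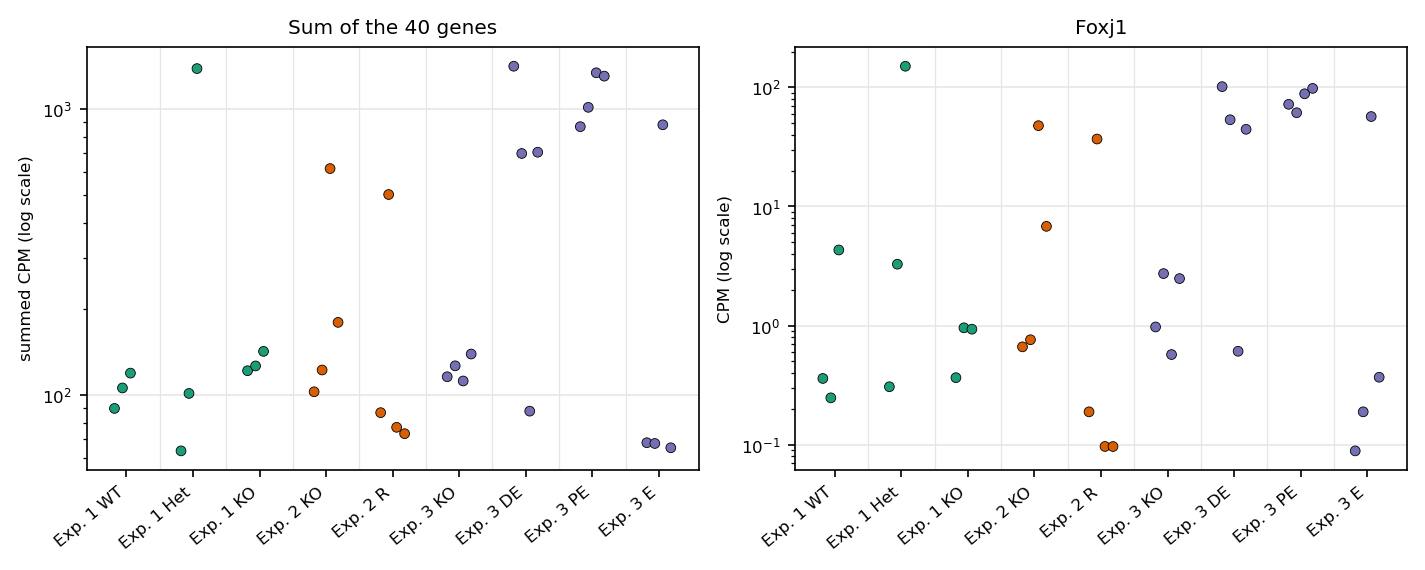
Summed level of the 40 motile cilia genes (left) and level of Foxj1 (right), in CPM on a log scale, with 1 point per library and the 9 groups on the horizontal axis. All 4 PE libraries lie between 868 and 1340 CPM in the sum, and DE, E, Het, and both groups of experiment 2 each hold at least 1 library at 502 CPM or more and at least 1 at 179 CPM or less.

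The first to describe are the regulators. Foxj1 (chromosome 11, 116330704 to 116335399, GRCm38) was at 72.1, 61.3, 88.5 and 98.2 CPM at PE and at 0.973, 2.73, 0.571 and 2.48 CPM in the KO libraries of experiment 3. It was at 102, 53.5, 0.608 and 44.5 CPM at DE and at 0.0885, 0.188, 57.0 and 0.368 CPM at E. The PE and KO libraries did not overlap, while DE had 1 library at the level of KO and E had 1, at 57.0 CPM, far above its others and below all PE libraries. In experiment 1 Foxj1 was at 0.359, 0.247 and 4.31 CPM in WT, 0.306, 3.28 and 151 in Het, and 0.365, 0.957 and 0.932 in KO. In experiment 2 it was at 0.662, 0.759, 47.7 and 6.81 CPM in KO and 0.188, 36.9, 0.0964 and 0.0963 in R. Among all 33 libraries the highest value was that of Het replicate 3.
Mcidas, upstream of Foxj1, was near the limit of detection: it had 0 counts in 20 libraries, which in each allows up to 3 counts, and at most 1.21 CPM, in DE replicate 4. It passed the filter on low counts in no experiment, so the main tests leave it out; without the filter it was called higher at DE against KO.
Ccno, which lies close to Mcidas on chromosome 13 (112987802 to 112990777, with Mcidas at 112993845 to 113000394), was detected in all 33 libraries, from 4.27 to 42.5 CPM; it is described on its own below.

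**Figure D2:**
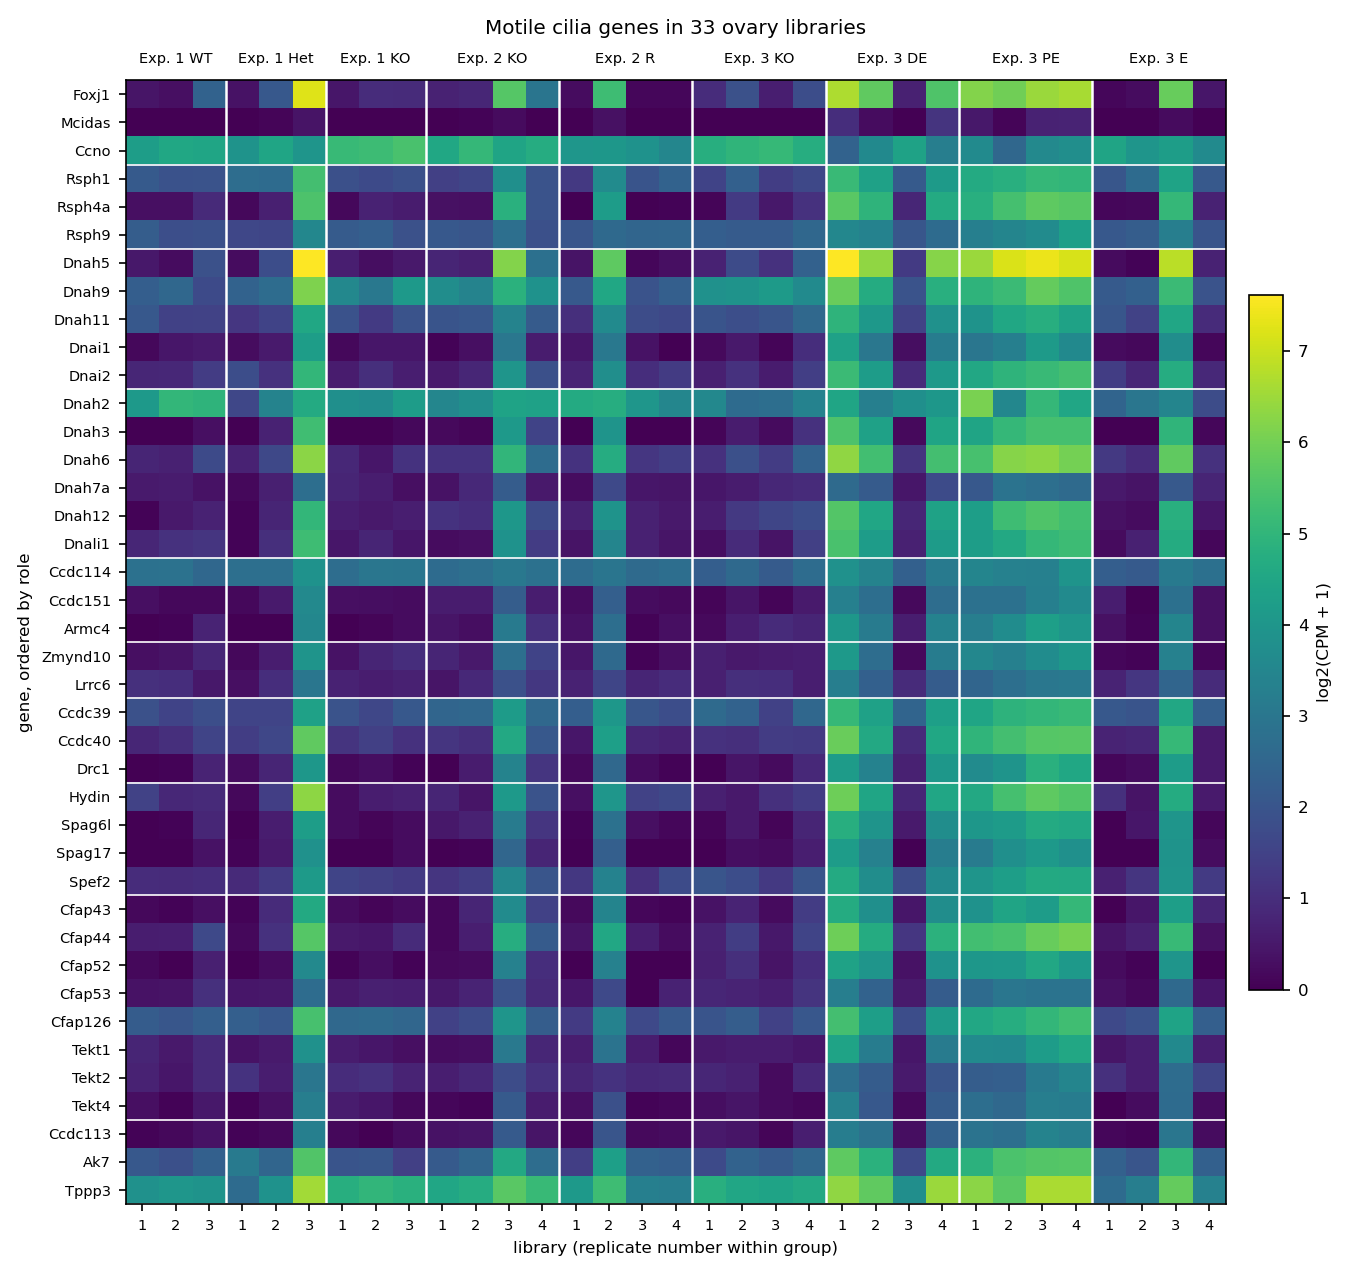
Level of each of the 40 genes, log2(CPM + 1), in the 33 libraries. Rows are genes ordered by role, with white lines between roles; columns are libraries by group and replicate. The columns of the 11 libraries with Foxj1 at 36.9 CPM or more are bright in nearly all rows, and Ccno, Dnah2, Ccdc114, Tppp3 and Dnah9 are also above the dark level in other columns.

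Between PE and KO of experiment 3, 39 of the 40 genes were tested. At an adjusted p under 0.05 (edgeR quasi-likelihood test, Benjamini-Hochberg over all 16944 genes tested), 36 rose at PE, against 17.5% of all genes, and 1 fell, against 16.3%. The libraries of the groups did not overlap, with PE higher, for 37 of the 39 genes (22.7% of all genes). The median log2 fold change was 4.49 over the 39 genes and 0.01 over all genes tested. The largest rises were of Dnah3, an inner arm dynein heavy chain, at 6.18 ± 1.86 (log2, SE; adjusted p = 0.021), and Dnah5, an outer arm heavy chain, at 6.02 ± 1.78 (adjusted p = 0.02). The count of calls fell from 37 to 24 without KO replicate 1 and to 23 without KO replicate 3, and the share over all genes, in either direction, from 33.8% to 22.8% and 23.6%. Without the filter on low counts 26 of the 40 genes were called, 25 higher (7.45% of all genes) and 1 lower (7.47%). Genes with hardly any counts in KO passed that filter through libraries of other groups, so the count of 36 depends on it.

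By role, all 3 genes for radial spokes rose, namely Rsph1 (3.52 ± 0.69, adjusted p = 0.0027), Rsph4a (5.72 ± 1.59, adjusted p = 0.015) and Rsph9 (1.60 ± 0.40, adjusted p = 0.0089). Rsph1 was at 24, 26.9, 33 and 31.1 CPM at PE and at 1.87, 4.06, 1.63 and 2.11 CPM in KO, with no overlap.
Of the 5 genes for outer arm dyneins 4 rose. Dnah5 was at 87.7, 146, 168 and 141 CPM at PE and at 0.673, 2.31, 1.14 and 4.13 CPM in KO. The intermediate chain gene Dnai1 rose by 4.69 and the heavy chain gene Dnah11 by 2.59, and Dnai2 rose as well (adjusted p = 0.0081). Dnah9, another heavy chain, was at 30, 35.3, 55.9 and 44.9 CPM at PE and 13.4, 14.0, 16.6 and 11.4 in KO, and its difference did not pass the test (1.54 ± 0.79, adjusted p = 0.15). The groups did not overlap for Dnah9 either.
All 6 genes for inner arm dyneins rose, with log2 fold changes from 2.04 for Dnah2 to 6.18 for Dnah3. Dnah7a has close copies in Dnah7b and Dnah7c, and reads shared among such copies are divided by the quantifier, so that its level is uncertain.

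The 3 genes for the docking complexes of outer arms rose, Ccdc114 by 1.21 ± 0.34, Ccdc151 by 4.99 ± 1.32 and Armc4 by 4.49 ± 1.28. Both genes for cytoplasmic assembly of dynein arms rose, Zmynd10 by 4.45 and Lrrc6 by 2.91.
Ccdc39 and Ccdc40 encode the paired rulers that set the spacing along the doublet, and Drc1 encodes a subunit of the nexin-dynein regulatory complex. They rose by 2.82 ± 0.69, 4.97 ± 1.35 and 5.80 ± 1.54. Ccdc39 was at 21.2, 29.6, 32.2 and 33.8 CPM at PE and at 5.24, 4.27, 1.79 and 4.77 in KO. Its log2 change was smaller than that of its partner Ccdc40, which was at 30.7, 39.3, 48.2 and 48.8 CPM at PE and 1.12, 1.05, 1.55 and 1.47 in KO; that difference between genes was not tested.

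All 4 genes of the central apparatus rose, from 2.98 for Spef2 to 5.87 for Spag6l, with Hydin at 5.44 ± 1.40 (adjusted p = 0.011). Spag6l has a near copy, Spag6, and its level is likewise uncertain.
All 8 genes for doublet and tether proteins rose, from 2.93 for Cfap53 to 5.42 for Cfap44, and the 3 tektins Tekt1, Tekt2 and Tekt4, which line the doublets, rose by 5.05, 3.37 and 4.90.
Of the remaining 3, Ccdc113, a ciliary coiled-coil protein, rose by 4.35, and Ak7, an adenylate kinase, by 3.46. Tppp3, a tubulin-binding protein, was at 77.9, 49.5, 98.5 and 100 CPM at PE and 27.2, 21.6, 20.4 and 23.3 in KO. The groups did not overlap for Tppp3, and its adjusted p was 0.051 (1.78 ± 0.66). Fitted on PE and KO alone, both genes passed, Tppp3 at an adjusted p of 0.00017 and Dnah9 at 0.00019.

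**Figure D3:**
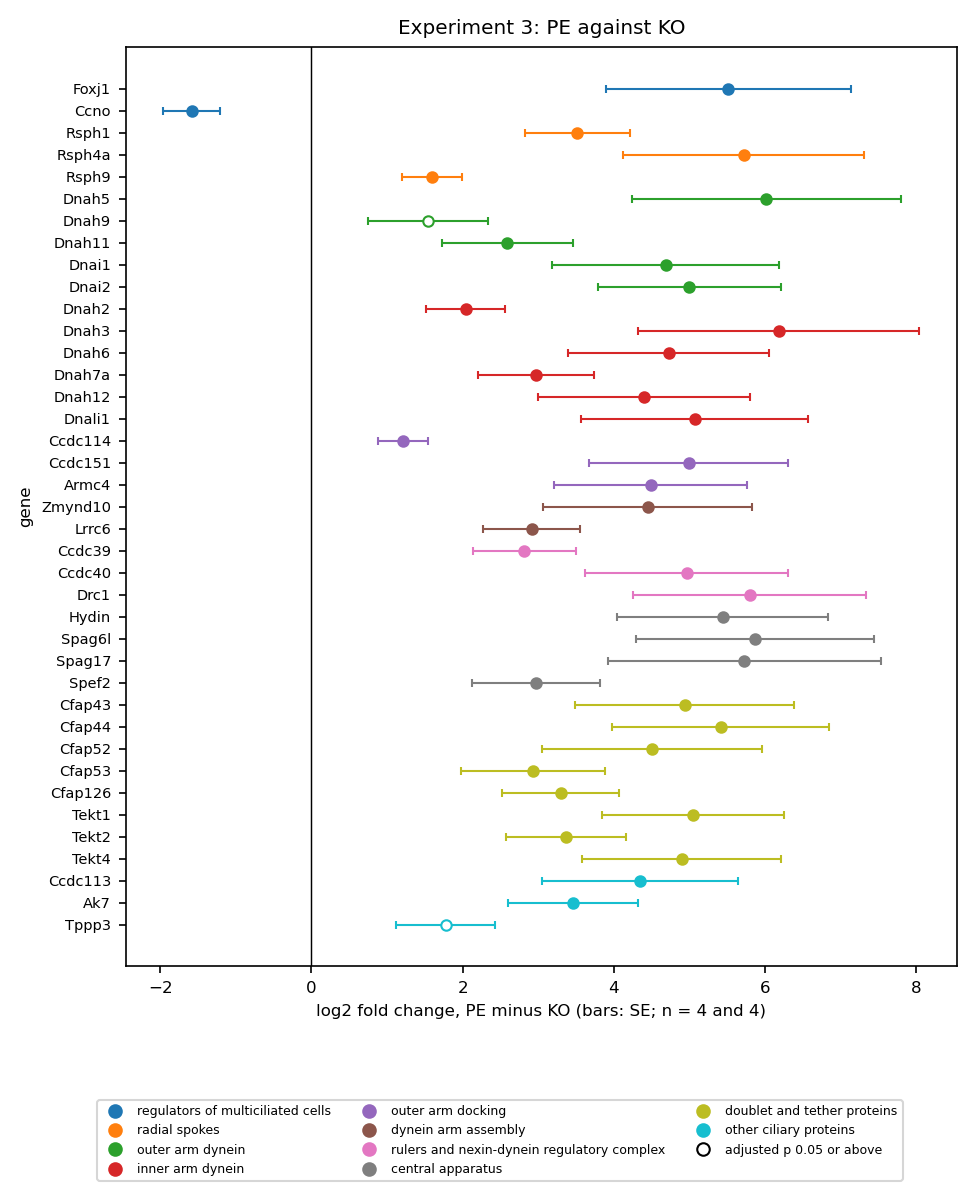
Log2 fold change of the 39 tested genes between PE and KO of experiment 3 (4 libraries each), with bars for the SE, coloured by role; open points have an adjusted p of 0.05 or above. Of the 39 genes 36 lie to the right and pass, Tppp3 and Dnah9 lie to the right and do not, and Ccno lies to the left at -1.58.

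Between DE and KO 26 of the 39 genes rose (13.5% of all genes) and 1, Ccno, fell (11.6%), so that 27 changed in either direction (25.1%). Foxj1 changed by 4.87 ± 1.59 (adjusted p = 0.039), Dnah5 by 5.42 ± 1.75 (adjusted p = 0.037) and Rsph1 by 2.92 ± 0.68 (adjusted p = 0.009). For no gene were all DE libraries above all KO libraries (11.9% of all genes), with DE replicate 3 below the highest KO library for all but Dnah2, where DE replicate 2 was below it. The count depended on single libraries: 37 genes were called without DE replicate 3 (33.5% of all genes in either direction), 2 without DE replicate 1 (15.2%), 15 without DE replicate 2 (19.0%) and 9 without DE replicate 4 (16.3%). Leaving out KO replicates 1 to 4 in turn gave 3, 5, 3 and 6 calls (14.4%, 16.3%, 14.1% and 14.8% of all genes). Rsph1 and Ccno passed under every alternative run for this comparison.

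Between E and KO no gene passed in edgeR's test (18.0% of all genes did, 8.98% in each direction), although 11 had an unadjusted p under 0.05; DESeq2 called 5 higher (Tekt1, Tekt2, Rsph1, Dnai2 and Drc1; 12.4% of all genes were higher by DESeq2) and limma voom called Ccno lower (17.1% of all genes). For all 5, E replicate 3 was the highest E library. Tekt1 was at 0.354, 0.565, 11.3 and 0.551 CPM at E and 0.449, 0.490, 0.489 and 0.367 in KO. Rsph1 was at 3.10, 5.34, 20.5 and 3.40 CPM at E and 1.87, 4.06, 1.63 and 2.11 in KO. Without E replicate 3 the call in edgeR's test was 1, Tppp3, which was lower (-1.55 ± 0.50, adjusted p = 0.049). In that fit 6.68% of all genes were lower.
Between E and PE no gene passed in edgeR's test with all libraries, nor did any of the 16944 genes (0.0%). An unadjusted p under 0.05 was found for 15 genes, DESeq2 called 2 lower at E, Dnah2 and Rsph9 (1.1% of all genes), and limma voom with quality weights called 33 lower (9.56% of all genes). For 13 of the 39 genes all E libraries were below all PE libraries (4.19% of all genes), Foxj1, Rsph1, Cfap44 and Dnah2 among them, and for none were they all above (4.34%). Without E replicate 3 there were 38 genes lower at E (8.48% of all genes), and without PE replicate 2 there was 1, Dnah2 (0.47%). In that fit without E replicate 3, Foxj1 changed by -8.49 ± 1.38 on the log2 scale (adjusted p = 0.0075) and Tppp3 by -3.37 ± 0.53 (adjusted p = 0.0075).
Between E and DE no gene passed in edgeR's test (0.0% of all genes; 3 at an unadjusted p under 0.05, and none by DESeq2 or limma voom), and 34 were lower at E without E replicate 3 (5.44% of all genes). Between PE and DE no gene passed in edgeR's test, in DESeq2 or in limma voom, or under any other alternative run (0.0% of all genes; 1 at an unadjusted p under 0.05), with log2 fold changes from -0.16 for Ccno to 1.15 for Dnah2. The comparisons of experiment 3 share libraries, so that E against PE and PE against KO rest on the same PE values.

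In experiment 1 the median log2 fold change of the 27 genes tested was 2.82 for Het against WT, and no gene passed in edgeR's test (0.0871% of all genes did). An unadjusted p under 0.05 was reached by 16 genes, DESeq2 called 2 higher, Dnai2 and Ak7 (0.952% of all genes), and limma voom called none. For Rsph1 and Ak7 all Het libraries were above all WT libraries (6.32% of all genes), and for no gene were they all below (8.56%). Dnah5 was at 0.419, 0.185 and 2.72 CPM in WT and at 0.184, 2.49 and 193 CPM in Het, so that Het replicate 3 was far above the rest and Het replicates 1 and 2 were below the highest WT library.
Between KO and Het, Rsph1 (-2.79 ± 0.78, adjusted p = 0.043) and Ak7 (-2.95 ± 0.84, adjusted p = 0.047) fell (7.9% of all genes), and Ccno rose (9.1%), which was also the 1 gene with all KO libraries above all Het libraries (19.8%). For 3 genes, Rsph1, Dnai2 and Ak7, all KO libraries were below all Het libraries (17.8%). Without Het replicate 1 the calls were 14 (13 lower, against 7.01% of all genes, and 1 higher, against 7.6%), and without KO replicate 1, 2 or 3 only Ccno was called (7.71%, 10.7% and 8.86% of all genes in either direction).
Between KO and WT, Ccno rose (4.53% of all genes) and none fell (3.34%; 1 gene, Ccno, had an unadjusted p under 0.05, and in edgeR's test none passed without WT replicate 1 or 2 or KO replicate 2 or 3). In experiment 2, R against KO, 1 of the 30 genes tested passed, Ccno, which was lower in R (31.9% of all genes passed in either direction). Leaving out R replicate 2 gave 3 calls, all lower in R (15.9% of all genes), namely Ccno, Tppp3 (-1.52 ± 0.37, adjusted p = 0.021) and Dnah9 (-2.17 ± 0.40, adjusted p = 0.0069). Leaving out KO replicate 3 as well gave 5, all lower in R (13.5%), with Ccdc151 and Dnah12 added. That pair, the libraries of experiment 2 with high Foxj1, was chosen after seeing the data, so the added calls are a description only.

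Ccno, the gene for cyclin O, fell at DE and PE against KO, where most of the other motile cilia genes rose. It was at 18.1, 22 and 21.3 CPM in WT, 14, 21.2 and 14.6 in Het, and 34, 36.6 and 42.5 in KO of experiment 1. KO was above both other groups without overlap (19.3% of all genes against WT and 19.8% against Het). The change was 0.86 ± 0.17 against WT (adjusted p = 0.018) and 1.17 ± 0.17 against Het (adjusted p = 0.003). The call against WT was lost without KO replicate 2 or 3 or without WT replicate 1 or 2 (highest adjusted p over the alternatives 0.073), with log2 fold changes from 0.77 to 0.94.
In experiment 2 Ccno was at 22.4, 32.9, 20.7 and 25.2 CPM in KO and 15.1, 15.5, 13.9 and 10.3 in R. R lay below KO without overlap (18.9% of all genes), by -0.86 ± 0.16 (adjusted p = 0.004), and was called lower under every alternative run. In experiment 3 it was at 26.3, 30.7, 33.4 and 25.9 CPM in KO and at 4.27, 11.2, 20.1 and 8.58 at DE. PE libraries held 11.6, 4.80, 11 and 12.7 CPM, and E libraries 20.8, 14.6, 18.0 and 11.5. All 12 stage libraries were below all 4 KO libraries. Over all genes, 12.6% lay below KO without overlap at DE, 18.3% at PE and 15.2% at E. Against KO the change was -1.42 ± 0.37 at DE (adjusted p = 0.016) and -1.58 ± 0.38 for PE (adjusted p = 0.0072), while that of E, -0.87 ± 0.37, did not pass (adjusted p = 0.11).
Ccno is also transcribed in oocytes, and its level was therefore set beside Gdf9, an oocyte gene, after both had been seen. Per CPM of Gdf9, Ccno was 0.235 to 0.260 in WT, 0.261 to 0.301 in Het and 0.245 to 0.265 in KO of experiment 1. The ratio was 0.166 to 0.183 in KO and 0.172 to 0.181 in R of experiment 2. In experiment 3 it was 0.160 to 0.206 (KO), 0.183 to 0.202 (DE), 0.139 to 0.213 (PE) and 0.166 to 0.205 (E). Over the 33 libraries Ccno thus varied 9.96-fold and its ratio to Gdf9 2.17-fold, with the higher ratios all in experiment 1. Gdf9 itself rose in KO against WT (0.81 ± 0.19, adjusted p = 0.036), was lower in R (-0.86 ± 0.16, adjusted p = 0.0052) and lower at PE against KO (-1.68 ± 0.31, adjusted p = 0.002). The part of oocyte RNA in the Ccno values was not tested.

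Tppp3, Dnah9 and Dnah2 also had levels apart from the shared pattern. In the 22 libraries with Foxj1 at 6.81 CPM or less, these 3 and Ccno made up 39.9% to 72.9% of the summed level, and in the 11 others 9.86% to 21.4%.
Tppp3 was at 13.5, 15.0 and 14.1 CPM in WT and 26.4, 31.1 and 27.4 in KO of experiment 1, and Dnah9 at 3.89, 4.88 and 2.30 in WT and 10.8, 7.29 and 15.9 in KO. For 5 genes all KO libraries were above all WT libraries (19.3% of all genes), these and Ccno, Cfap126 and Spef2, and for 3 they were all below (15.8%), Rsph1, Dnali1 and Hydin. Neither Tppp3 nor Dnah9 passed in the fit of all 3 groups (adjusted p = 0.53 and 0.39); fitted on WT and KO alone, Tppp3 rose by 0.97 ± 0.12 (adjusted p = 0.0034) and Dnah9 by 1.60 ± 0.35 (adjusted p = 0.028).
Dnah9 was at 13.4, 14.0, 16.6 and 11.4 CPM in KO of experiment 3, while in DE replicate 3 and E replicates 1, 2 and 4 it was at 2.89, 3.45, 4.08 and 2.85 CPM. Foxj1 was at 0.973, 2.73, 0.571 and 2.48 CPM in those KO libraries. In DE replicate 3 and E replicates 1, 2 and 4 it was at 0.608, 0.0885, 0.188 and 0.368 CPM. Foxj1 was thus mostly higher in KO too, at 2.73 CPM or less. The orders were not the same: KO replicate 3, the highest of these libraries in Dnah9, was below DE replicate 3 in Foxj1.
Dnah2 was at 16, 31.9 and 30.1 CPM in WT of experiment 1, where Foxj1 was at 4.31 CPM or less, and its highest value was 66.3 CPM in PE replicate 1, against 10.4, 32.5 and 21.9 in the other PE libraries. Its exons overlap those of Dnah2os on the opposite strand, and without strand in the counting, reads of both cannot be told apart. Other members have such overlaps too, among them Dnah9 with Gm12296 on the opposite strand and Cfap43 with Itprip on the same strand.

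**Figure D4:**
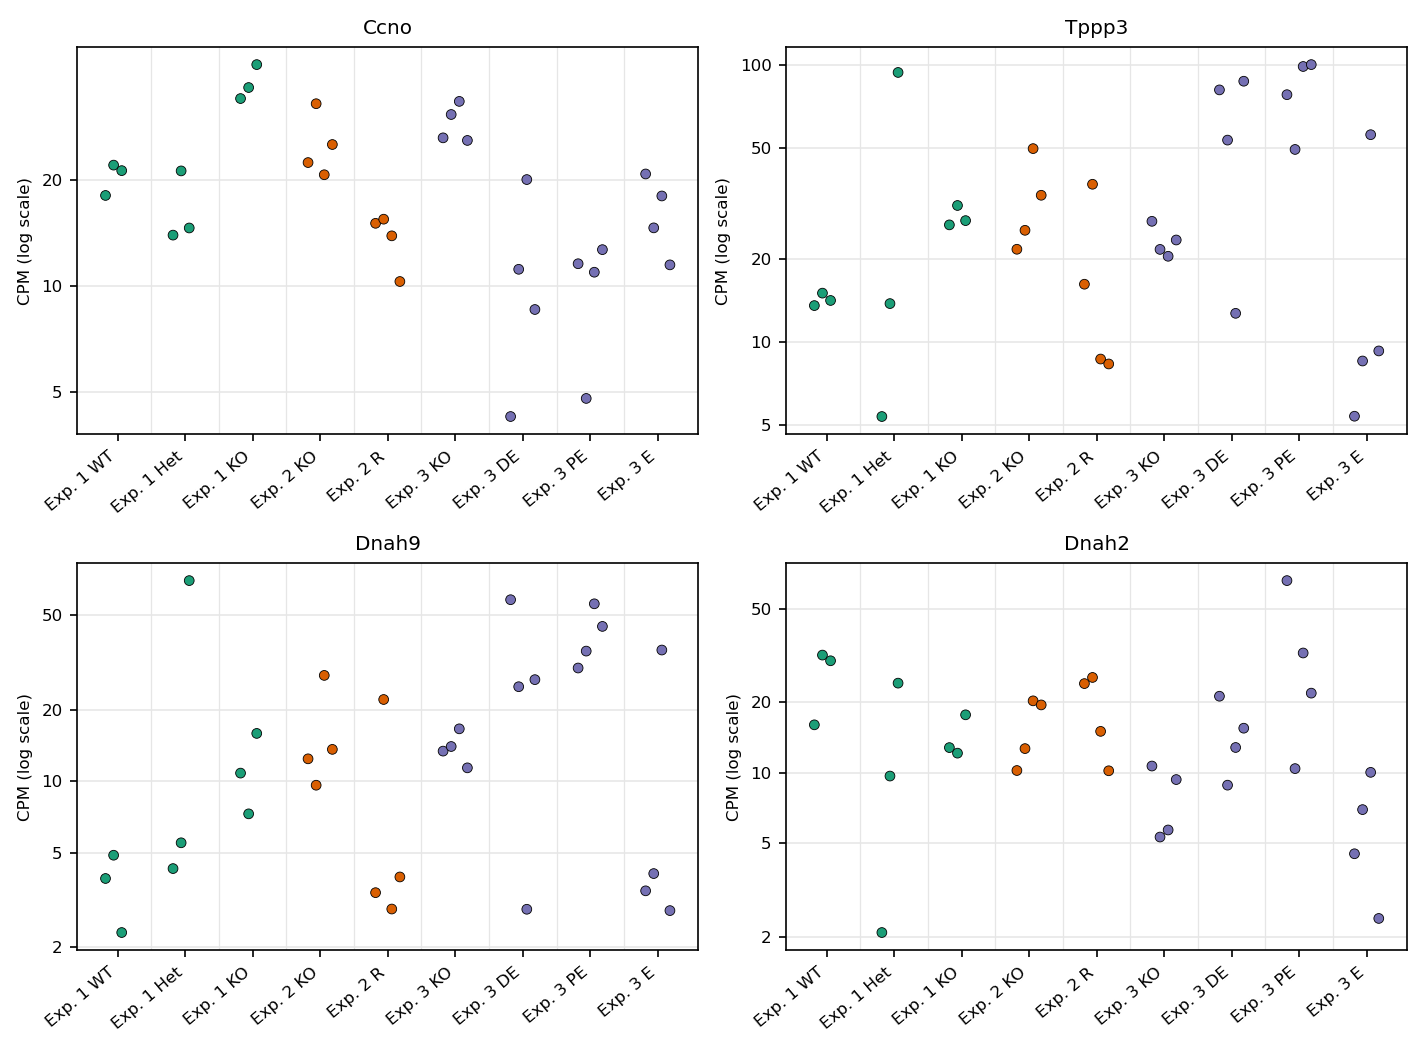
Levels of Ccno, Tppp3, Dnah9 and Dnah2 in CPM on log scales, with 1 point per library and the 9 groups on the horizontal axis. Within each experiment Ccno is highest in KO (in experiment 1 from 34 CPM up), Tppp3 and Dnah9 are above WT in KO of experiment 1 as well as in the libraries with high Foxj1, and Dnah2 spreads within groups, from 10.4 to 66.3 CPM at PE.

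Compared per length, as CPM per kilobase of exon, Tppp3 was the most abundant of the 40 genes at PE (44.1), followed by Foxj1 (30.5), Rsph1 (20.97), Cfap126 (16.7) and Dnali1 (12.9). The long heavy chain genes were lower, with 8.67 for Dnah5, 2.61 for Dnah9, 2.35 for Dnah3 and 0.411 for Dnah7a, and Mcidas was lowest with 0.194.
Detection differed among members: 10 were at 1 CPM or more in all 33 libraries, 16 had counts in all libraries but fell under 1 CPM in some, and 14 had 0 counts in at least 1 library. Spag17 had 0 counts in 12 libraries and Dnah3 in 10.
Within the 11 libraries with Foxj1 at 36.9 CPM or more, Foxj1 itself varied 4.09-fold. The ratio of another gene to Foxj1 (of CPM values, not per length) was 0.265 to 0.438 for Rsph1, 0.416 to 0.632 for Dnah9, 1.22 to 2.38 for Dnah5 and 0.0571 to 0.0964 for Tekt4. These 4 are among the genes with the smaller ranges: the ratio stayed within a 3-fold range for 29 of the 39 other genes and went beyond it for 10, most for Mcidas (22.8-fold), Ccno (10.3-fold) and Dnah2 (5.73-fold). The ratio was lowest in Het replicate 3, where Foxj1 was highest, for 30 of the 39.

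Lists of related genes were compared between PE and KO, where 17.5% of all genes rose, 16.3% fell and the median was 0.01. Of 76 other axoneme and ciliary genes tested 67 rose and none fell (median 3.17 on the log2 scale), among them Nme5 (3.16 ± 0.69, adjusted p = 0.0045) and Cfap45 (4.32 ± 0.96, adjusted p = 0.0052).
Of 18 genes of the multiciliated cell programme tested 7 rose and 5 fell (median -0.07). Deup1, which builds the platforms on which basal bodies form, rose by 3.16 ± 0.78 (adjusted p = 0.0085) and the X-box factor Rfx3 by 0.52 ± 0.13 (adjusted p = 0.01). E2f5, a partner in the Mcidas complex, fell by 0.71 and Ccne2, a cyclin of DNA replication, fell by 0.92.
Of 39 genes of the primary cilium and intraflagellar transport, which most cells use, 11 rose and 6 fell, with a median of 0.24.
The 10 genes outside all lists whose level was most like the index over the 16 libraries of experiment 3 were Tcte1, Kndc1, Eno4, Prr29, Cdkl4, Ttc21a, Fam216b, Rp1, Stmnd1 and Barx2, with Pearson's r of log2(CPM + 1) from 0.996 to 0.998, and 0.977 to 0.995 over the 17 other libraries. The libraries fall into a high and a low set, which all such genes share, and 349 of 13912 genes had r over 0.95, so these values are a description only.

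Markers of other cell types also differed between PE and KO. The 5 oviduct secretory genes summed to 3006 to 5512 CPM at PE and 3.59 to 38.4 CPM in KO of experiment 3, and 4 of 5 rose, Ovgp1 by 7.71 ± 2.61 (adjusted p = 0.035), Dcpp3 from at most 0.0918 CPM in KO to 7.01, 131, 28.1 and 16.3 CPM (adjusted p = 0.011), and the epithelial factor Pax8 by 3.77 ± 1.17 (adjusted p = 0.025). Of 12 general epithelial genes 9 rose (703 to 953 CPM at PE and 176 to 190 in KO), and of 9 smooth muscle genes 7 rose (2852 to 4563 and 982 to 2132 CPM). Of 6 adipocyte genes 3 rose (347 to 1919 and 25 to 399.9 CPM), and of 6 genes of surface epithelium and mesothelium 1 rose (193 to 322 and 150 to 210 CPM). None of these 5 lists had a gene that fell. Of 8 ovary genes 3 fell, Amh, Gdf9 and Zp3, and 1 rose, Cyp11a1 (2065 to 5699 CPM in sum at PE and 3002 to 3380 in KO). Over all 33 libraries the secretory sum was 204 CPM or more in the 11 libraries with high Foxj1 and 110 or less in the others. In each of the other cell type lists the sums of these 2 sets overlapped when all experiments were pooled. Adipocyte genes summed to 46.9 CPM in Het replicate 3 and 21.7 in KO replicate 3 of experiment 2. They summed to 304 in DE replicate 3 and 533 in E replicate 4, where Foxj1 was low. Within experiment 3 the sums of general epithelial genes did not overlap (696 CPM or more with high Foxj1, 190 or less in the others). Nor did those of smooth muscle genes (2852 or more and 2374 or less), while the adipocyte, surface epithelium and ovary lists overlapped there too. Het replicate 3 was the highest library of experiment 1 in both lists (455 and 4495 CPM), and in experiment 2 both overlapped. The list of sperm flagellum and spermatid genes, 14 genes of which 3 were tested, summed to 8.15 to 11.6 CPM at PE and 11.7 to 16.5 CPM in KO; Tekt3 rose and Dnah17 fell. How far these cell types carried the rise of the motile cilia genes was not tested.
Ovgp1 was not in 1 proportion to Foxj1. Per CPM of Foxj1 it was 41.1 to 86.8 in the 8 libraries of experiment 3 with high Foxj1, 6.03 in Het replicate 3 of experiment 1, and in experiment 2 4.15 in KO replicate 3, 15.7 in KO replicate 4 and 11.5 in R replicate 2. The protocols describe library preparation for the stage study apart from the other experiments, so that preparation, condition and ratio cannot be told apart.

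**Figure D5:**
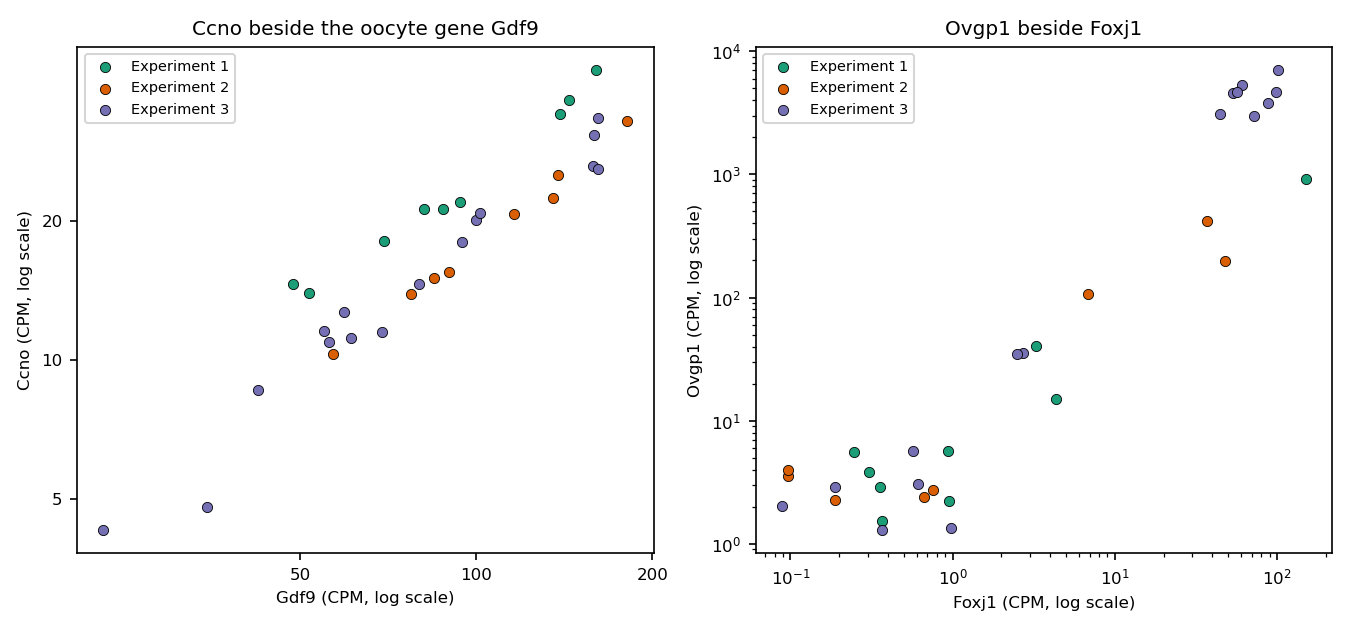
Left, Ccno against the oocyte gene Gdf9; right, Ovgp1 against Foxj1; CPM on log axes, 1 point per library, coloured by experiment. Ccno and Gdf9 rise together from 4.27 to 42.5 CPM of Ccno, and the 8 libraries of experiment 3 with high Foxj1 have more Ovgp1 (2968 to 7042 CPM) than KO replicate 3 (198 CPM) and R replicate 2 (422 CPM) of experiment 2 or Het replicate 3 (909 CPM), whose Foxj1 is higher.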

How the data were processed

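The authors deposited 1 table of estimated counts per gene for all 33 libraries of mouse ovary RNA. Salmon, DESeq2 and GRCm38 are named, without versions, in the submitters' processing notes, and which step used each is not given in the sources used here; 10.5% to 20.1% of the values of a library were not whole. Per the labels' protocols, RNA was purified on RNeasy columns with DNase.

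Counts were rounded to whole numbers. Of 54347 identifiers 54094 matched GENCODE M21 (GRCm38), and 253 had no symbol. The 40 genes and the lists of other genes were chosen with earlier results of these data known. Levels are counts per 1000000 of the library total. Each experiment was fitted apart, with all its groups, in edgeR 4.0.16 (R 4.3.3; TMM, filterByExpr, robust quasi-likelihood test), and p-values were adjusted by Benjamini-Hochberg over all genes tested at a threshold of 0.05; every adjusted p is from edgeR unless another tool is named. Fold changes are log2 with the SE taken from the test statistic. The steps were tested on simulated data. No 2 replicates agreed within sampling noise.

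Genes of other lists are named by the smallest p in PE against KO, and genes most like the index by Pearson's r. Alternatives were DESeq2 1.42.0, limma 3.58.1 voom with quality weights, other size factors, filters and pseudocounts, a replicate block, fits of the groups compared alone, and leaving out libraries. Leaving out KO replicate 3 and R replicate 2 of experiment 2 together was chosen after seeing the data. DE replicate 3 and E replicate 3, also left out together, are the libraries whose cilia level went against the others of their stages. They were thus picked by the level of the genes tested, and calls made without them follow in part from that choice. The depth of 10.1 M to 23.7 M counts sets the precision of low levels, and 0 counts allow up to 3.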

Additional observations from a re-analysis of the deposited data

Results flagged for a closer look

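In each group of 4 libraries, 9 quantities were examined for a library whose gap to the nearest other exceeded Dixon's critical share of the group's range. Of 54 such tests 16 met it, and chance gives about 1 in 20; the quantities move together and are not independent. All 16 were the highest library of their group. In E replicate 3 they were the cilia index (4.07), the summed level (881 CPM), Foxj1 (57 CPM), Dnah5 (112 CPM), Dnah9 (35.7 CPM), Tppp3 (55.9 CPM) and Ovgp1 (4630 CPM). In R replicate 2 of experiment 2 they were the index (3.32), the summed level (502 CPM), Foxj1 (36.9 CPM), Dnah5 (51.8 CPM), Dnah9 (22.1 CPM) and Ovgp1 (422 CPM). In KO replicate 3 of experiment 2 they were the summed level (619 CPM), Foxj1 (47.7 CPM) and Dnah5 (73.1 CPM).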

How the results depend on the processing

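Depth limits the lowest members, above all Mcidas, Spag17 and Dnah3, and single libraries limit most counts of calls. Shares of all genes called follow in brackets, in either direction unless a direction is named. Fitting only the groups compared gave 3 calls for KO against WT (11.3%), 1 for KO against Het (14.5%) and 1 for E against KO (27.0%). DESeq2 gave 2 calls for Het against WT (1.99%), 5 for E against KO (23.2%) and 2 for E against PE (1.99%). Limma voom gave 1 for KO against Het (22.3%), 1 for E against KO (31.0%) and 33 for E against PE (14.4%). Without the filter there were 1 for KO against Het (7.22%), 5 for DE against KO (9.69%) and 26 for PE against KO (14.9%). Without DE replicate 3 and E replicate 3 together there were 8 for E against KO, all lower (20.7%, with 9.57% lower). There were 38 for E against PE, all lower (15.5%, with 11.5% lower), and 37 for E against DE, all lower (12.1% lower). Leaving out KO replicate 3 and R replicate 2 of experiment 2 together (chosen after seeing the data) gave 5 for R against KO. All 5 were lower in R (25.6%, with 13.5% lower). The cause was not tested.

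Leaving out 1 library at a time gave these ranges of calls, with the share of all genes in brackets. They were 0 to 1 for KO against WT (2.58% to 5.83%), 0 to 0 for Het against WT (0.0509% to 0.0792%) and 1 to 14 for KO against Het (7.71% to 14.6%). R against KO had 1 to 3 (22.8% to 32.5%), DE against KO 2 to 37 (14.1% to 33.5%) and PE against KO 23 to 37 (22.8% to 29.0%). E against KO had 0 to 1 (11.1% to 16.1%) and PE against DE 0 to 0 (0.0%). E against PE had 0 to 38 (0.0% to 10.7%) and E against DE 0 to 34 (0.0% to 6.03%).

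Same-numbered replicates did not deviate together (not every pair's correlation was over 0.1 in any comparison), so the numbers were not used as pairs. With the replicate block there was 1 call for KO against Het (13.0% of all genes), 14 for DE against KO (19.8%) and 33 for PE against KO (28.8%).

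The group mean of the index moved with its pseudocount by construction. With 0.1 it was -0.13 in WT and -0.15 in KO of experiment 1, 0.38 in R, and 0.29 in KO of experiment 3. With 5 it was 2.75, 2.78, 2.99 and 2.82 in these groups, 3.16 in KO of experiment 2 and 4.69 at PE. The median over members gave 0.73 in WT and 0.62 in KO of experiment 1 and 0.96 in KO of experiment 3, and without the 5 most abundant members KO of experiment 1 was at 0.99. For the 69 calls of single genes, 820 values under alternatives kept the call and direction, 266 lost the call and none reversed. Of 276 gene-by-comparison tests without a call, 120 were called under at least 1 alternative.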
